A study of Mus musculus with 6 samples.

Results

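A set of 8 genes of the Hedgehog pathway and of Leydig cell progenitors was followed in mouse testes that over-express aromatase: Dhh, Ptch1, Hhip, Gli1, Gli2, Pdgfra, Nr2f2 and Tcf21. They were taken as all non-control probes that carry one of these 8 symbols in the array files, which gave 11 probes of the 55681 on the array. Of the 8 genes, 6 rose in AROM+ testes and 0 fell at an adjusted p under 0.05, and Dhh and Ptch1 did not pass the test. Among all 18854 genes tested in the same way, 18.9% were higher and 30.2% lower. The largest of the 6 rises were those of the progenitor transcription factors Tcf21 and Nr2f2, at 2.67-fold and 2.31-fold. The Hedgehog genes Hhip, Gli2 and Gli1 rose by 1.74-fold, 1.56-fold and 1.45-fold, and the receptor gene Pdgfra by 1.51-fold. Gli1 rose on its brightest probe only, and its other probe did not pass the test. The calls of Gli2, Gli1 and Pdgfra were lost under some processing settings and when some single arrays were left out.

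Desert hedgehog is a secreted protein that Sertoli cells, the supporting cells of the seminiferous tubules, send to the interstitial cells around them. It binds the receptor Patched, which otherwise holds back the membrane protein Smoothened, and the released signal acts through the Gli transcription factors. Ptch1, Hhip and Gli1 are themselves switched on by the pathway in many tissues and are widely used as its readout. In the fetal testis this signal drives interstitial progenitors to become Leydig cells, the makers of testosterone, and those progenitors carry Pdgfra, Nr2f2 and Tcf21.

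The series compared 3 AROM+ testes with 3 WT testes, each from a male mouse of 5 months on the C57BL/6 background. AROM+ mice are transgenic for over-expression of aromatase, which converts androgens to oestrogens, and WT mice are wild type. The labels give neither the promoter nor the species of the transgene. Each sample was a single whole testis on 1 one-colour array, so p-values measure the spread between these testes. In such bulk samples, fewer cells of a type and less RNA per cell cannot be told apart.

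Between 76.6% and 80.6% of spots per array were well above background, none was saturated, and the number of arrays limits the precision. The 6 arrays shared 1 slide, AROM+ testes filling one row and WT testes the other, so row and genotype cannot be told apart. Endogenous Cyp19a1, the mouse aromatase gene, read 10.12, 12.61 and 9.859% of the array's 75th percentile in AROM+ testes and 14.7, 10.3 and 15.5% in WT testes, and did not pass the test (log2 difference −0.30 ± 0.19 SE, adjusted p = 0.223). This probe does not check the genotype labels, since it may not match the transgene. The median difference of all genes was −0.14 on the log2 scale, and 38.4% of the gene calls were higher. With quantile normalization the median was −0.04 and 51.8% of the calls were higher.

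Levels below are the processed intensity of a probe as a percentage of its array's 75th percentile of intensity, and are compared only within a probe. Differences are log2 AROM+ minus WT from limma, with their standard error (SE), over 3 testes per group. P-values are adjusted over all 42637 probes that were well above background on every array of at least 1 group. Of the 11 probes, 10 passed that filter, each of them on all 3 arrays of both groups. A gene with several probes was called by its brightest one, and 3 of the 8 genes had a second probe.

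**Figure D1:**
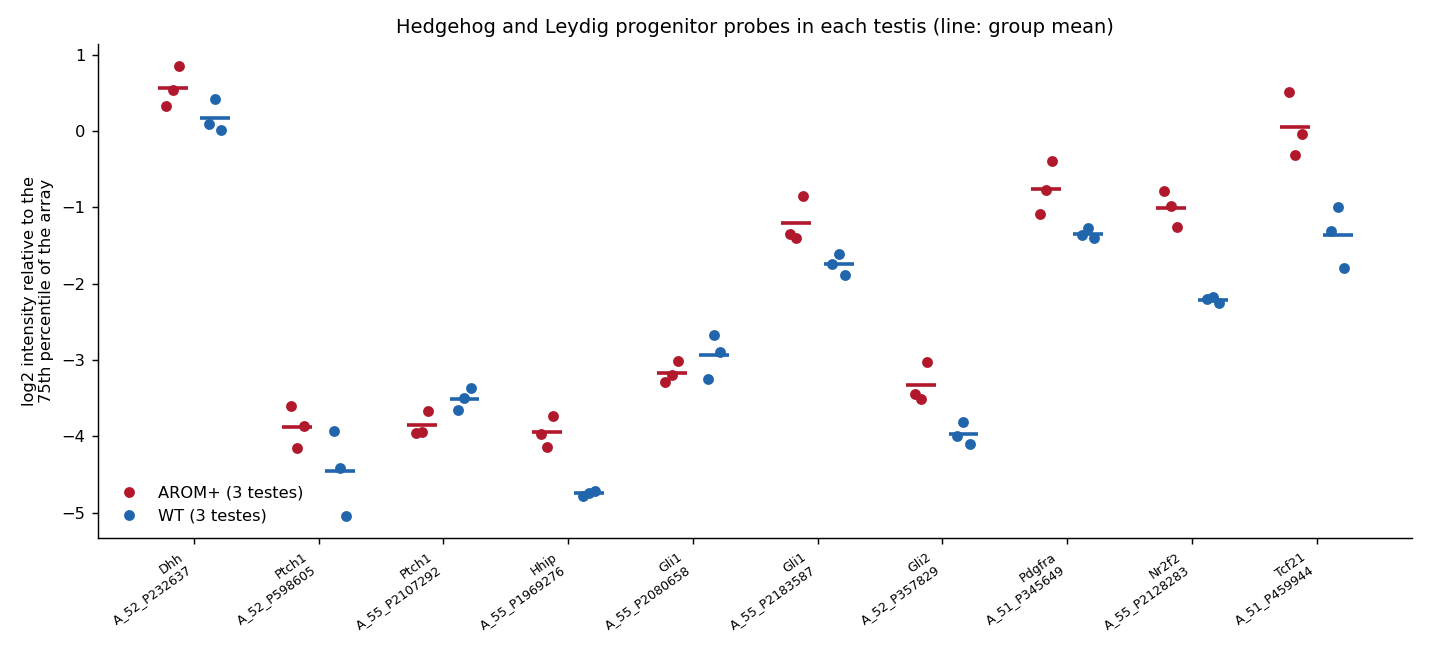
Log2 of the processed intensity over the 75th percentile of its array (vertical axis) for the 10 tested probes (horizontal axis), with AROM+ testes in red left of WT testes in blue. Each point is 1 testis and each line a group mean; for Hhip, Gli2, Pdgfra, Nr2f2, Tcf21 and 1 of the Gli1 probes all 3 AROM+ points lie above all 3 WT points.

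Dhh encodes the ligand. Its probe (A_52_P232637, chr15:98723465-98723524 of NCBI37/mm9, minus strand) read 125.3, 144.5 and 179.7% in AROM+ testes and 106.4, 133.4 and 100.6% in WT testes. The groups overlapped, because WT replicate 2 lay above AROM+ replicate 1. The difference was 0.40 ± 0.17 with a 95% interval of −0.01 to 0.80, and it did not pass the test (adjusted p = 0.0979). Intervals here and below cover a single probe and are not adjusted for the number of probes.

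Ptch1 encodes the Patched receptor, which restrains Smoothened until a ligand binds. Its brightest probe (A_55_P2107292, chr13:63612879-63612938, minus strand) read 6.478, 6.498 and 7.844% in AROM+ testes and 7.95, 8.84 and 9.69% in WT testes. All 3 AROM+ testes lay below all 3 WT testes, but AROM+ replicate 3 and WT replicate 1 lay close together. The difference of −0.35 ± 0.12 (95% interval −0.64 to −0.05) missed the threshold at an adjusted p of 0.0579, and it passed without AROM+ replicate 3 (−0.44, adjusted p = 0.036).

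The second Ptch1 probe (A_52_P598605, chr13:63610298-63610357, minus strand) read 8.25, 5.63 and 6.89% in AROM+ testes and 6.59, 4.72 and 3.05% in WT testes. The groups overlapped, with WT replicate 3 the lowest of the 6. Its difference had the opposite sign, 0.58 ± 0.29 (95% interval −0.10 to 1.27, adjusted p = 0.136), and it passed only without WT replicate 1 among the arrays left out (0.85, adjusted p = 0.0494). The 2 probes lie 2.58 kb apart. The log2 ratio of the second probe to the brightest was 0.93 higher in AROM+ testes, with p = 0.1 in a two-sided exact permutation test, the smallest value that 3 testes against 3 can give. Averaging both probes turned the sign of the gene's difference to 0.12 (adjusted p = 0.491). The Ptch1 probes thus differed in sign, and neither passed the test.

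Hhip encodes Hedgehog interacting protein, a membrane protein that binds the ligand and takes it away from Patched. Its probe A_55_P1969276 (chr8:82494280-82494339, minus strand) read 6.42, 5.66 and 7.55% in AROM+ testes and 3.64, 3.75 and 3.80% in WT testes. The WT values were nearly equal and every AROM+ value was above them. Hhip rose by 0.80 ± 0.12 (95% interval 0.51 to 1.10, adjusted p = 0.00562). A second Hhip probe 3.55 kb away (A_51_P416822, chr8:82490729-82490788, minus strand) was not well above background on any of the 6 arrays and was not tested.

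Gli1 encodes the Gli activator that the pathway itself induces. Its brightest probe (A_55_P2183587, chr10:126766967-126767026, minus strand) read 39.1, 37.8 and 55.5% in AROM+ testes and 30.0, 32.8 and 27.2% in WT testes. The groups did not overlap, and AROM+ replicate 3 stood above the other two AROM+ testes. Gli1 rose by 0.54 ± 0.17 (95% interval 0.14 to 0.94, adjusted p = 0.0386). The call was lost without any one of AROM+ replicates 1 and 3 and WT replicates 1, 2 and 3 (differences of 0.36 to 0.61, adjusted p up to 0.12), and it was kept when AROM+ replicate 2 was left out.

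The other Gli1 probe (A_55_P2080658, chr10:126775021-126775080, minus strand) read 10.2, 10.9 and 12.4% in AROM+ testes and 10.5, 15.6 and 13.4% in WT testes. These groups overlapped, and WT replicate 2 was the highest of the 6. The difference was −0.23 ± 0.16 (95% interval −0.61 to 0.16, adjusted p = 0.286). The 2 Gli1 probes lie 8.05 kb apart, and the log2 ratio of this probe to the brightest was 0.77 lower in AROM+ testes (−0.77, two-sided exact permutation p = 0.1, the smallest possible). The mean of both probes gave 0.16 (adjusted p = 0.389), so the Gli1 call rests on 1 probe.

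The probe sequences below come from the array files and are shown for the Ptch1 and Gli1 probes that ran against the partner probe of their gene, and for Tcf21, which changed the most. Each has 60 bases and is printed 5′ to 3′ in the sense of the gene.
Ptch1 A_55_P2107292: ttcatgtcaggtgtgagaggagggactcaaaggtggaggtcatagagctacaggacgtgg
Gli1 A_55_P2080658: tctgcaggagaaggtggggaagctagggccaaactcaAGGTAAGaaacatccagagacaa
Tcf21 A_51_P459944: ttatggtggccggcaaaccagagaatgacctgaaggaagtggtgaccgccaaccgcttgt
The capitals in the Gli1 probe mark AGGTAAG, starting at base 38, letters that are common where an exon ends and an intron begins. The same letters, read on the probe strand, occur in 0.226% of the 55681 probes. No genome was used here, so whether this probe crosses into an intron was not tested, and the exon, intron or UTR position of the other probes is not given.

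Gli2 encodes the Gli protein that carries most of the activating signal in mouse tissues. Its probe (A_52_P357829, chr1:120731255-120731314, minus strand) read 9.22, 8.77 and 12.3% in AROM+ testes and 6.26, 7.10 and 5.83% in WT testes. All 3 AROM+ testes were above all 3 WT testes, with AROM+ replicate 3 the highest. Gli2 rose by 0.65 ± 0.16 (95% interval 0.28 to 1.01, adjusted p = 0.0168). It was no longer called without WT replicate 1 (0.63, p 0.0538 after adjustment) or WT replicate 3 (0.58, adjusted p = 0.0618), and with normexp background correction (0.41, adjusted p = 0.055).

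Pdgfra encodes a receptor for platelet-derived growth factors that marks interstitial mesenchyme and Leydig progenitors. Its probe (A_51_P345649, chr5:75593888-75593947, plus strand) was spotted 10 times per array, and the SD between those spots was 0.0829 to 0.11 on the log2 scale. It read 47.0, 58.4 and 75.9% in AROM+ testes and 39.0, 41.3 and 38.0% in WT testes. The groups did not overlap, and the AROM+ testes were spread more widely than the WT testes (60.5 ± 14.5% and 39.4 ± 1.70%, SD, n = 3 each). Pdgfra rose by 0.59 ± 0.18 (95% interval 0.18 to 1.00, adjusted p = 0.0327). The call was lost without any one of AROM+ replicates 2 and 3 and WT replicates 1, 2 and 3 (differences of 0.41 to 0.62), and it was kept without AROM+ replicate 1.

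Nr2f2 encodes COUP-TFII, a nuclear receptor of interstitial progenitor cells that veins and lymphatic vessels also express. Its probe (A_55_P2128283, chr7:77496873-77496932, minus strand) read 58.1, 50.8 and 41.9% in AROM+ testes and 21.9, 22.2 and 20.9% in WT testes. Every AROM+ testis was far above the narrow WT range, and here AROM+ replicate 3 was the lowest of its group. Nr2f2 rose by 1.205 ± 0.134 (95% interval 0.89 to 1.52, adjusted p = 0.00354).

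Tcf21 encodes a basic helix-loop-helix transcription factor of stromal progenitors in the gonad and other organs. Its probe (A_51_P459944, chr10:22537563-22537622, minus strand) read 141.9, 80.5 and 97.3% in AROM+ testes and 40.4, 50.3 and 28.7% in WT testes. The groups did not overlap, and AROM+ replicate 1 stood above the rest. Tcf21 rose by 1.42 ± 0.27 (95% interval 0.77 to 2.06, adjusted p = 0.00886). Its levels were 106.6 ± 31.7% in AROM+ and 39.8 ± 10.8% in WT (SD, n = 3 each), with log2 SDs of 0.42 and 0.41.

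**Figure D2:**
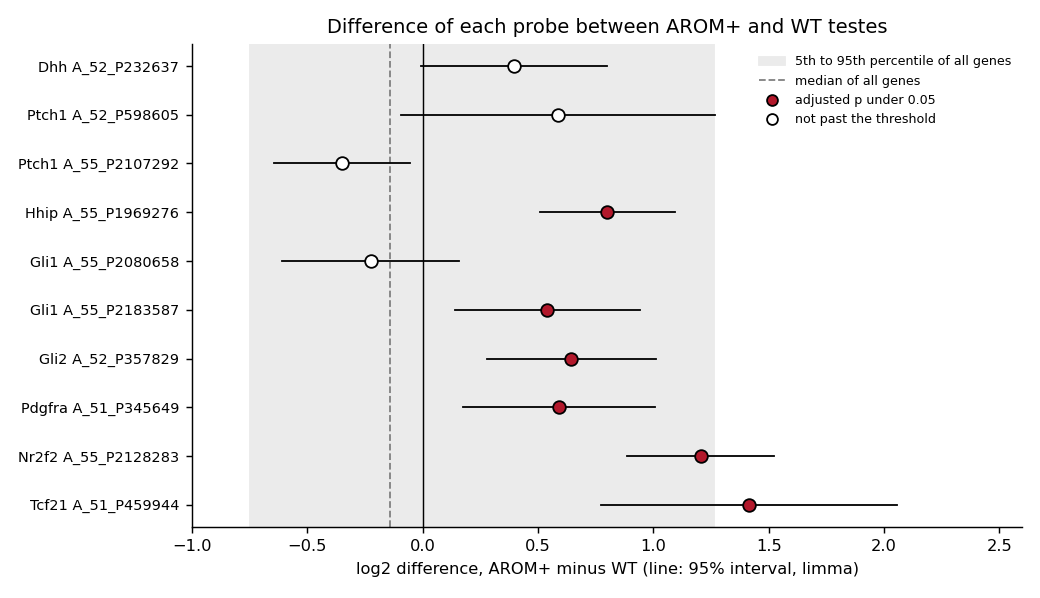
Log2 difference, AROM+ minus WT (horizontal axis), of each of the 10 tested probes, with its 95% interval from limma. Filled points passed an adjusted p of 0.05; the grey band is the 5th to 95th percentile of all genes (−0.75 to 1.26), and of the 10 probes Tcf21 alone has its point beyond that band.

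Counted by brightest probe, the 6 genes that rose also had groups that did not overlap, and Ptch1 had groups that did not overlap in the other direction. Over all genes 23.3% had non-overlapping groups with AROM+ higher and 40.2% with AROM+ lower. The median difference of the 8 genes was 0.62, against −0.14 over all genes. Only Hhip, Nr2f2 and Tcf21 passed the test in every setting and without every single array that was tried.

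The testes of 1 group did not order alike across the probes. AROM+ replicate 3 was the highest AROM+ testis for 7 of the 10 probes, and AROM+ replicate 1 for the other 3, namely the dimmer Ptch1 probe, Nr2f2 and Tcf21. Among WT testes, replicate 2 was the highest for 7 of the 10 probes and replicate 3 the lowest for 7. Without WT replicate 1 or without WT replicate 3, 3 of the 8 genes were called higher. Of all 18854 genes, 2381 and 2294 were higher in these runs, against 3560 with all arrays.

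**Figure D3:**
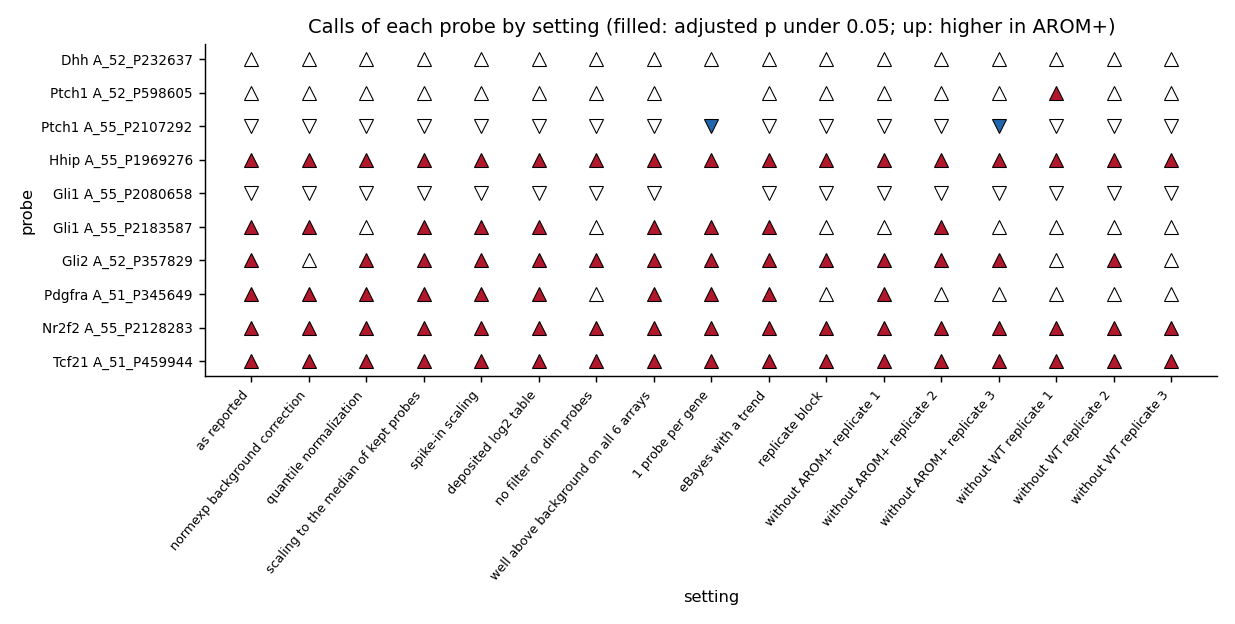
Calls of the 10 tested probes (rows) under the reported setting, other settings and with each testis left out (columns). Triangles point up where AROM+ was higher and down where it was lower, and are filled where the adjusted p was under 0.05; blank cells are probes that a setting did not use, and the rows of Hhip A_55_P1969276, Nr2f2 and Tcf21 are filled throughout.

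Of 40 listed Hedgehog genes beyond the 8, 36 were tested, of which 10 were higher (27.8%), 11 lower (30.6%) and 15 not called, with a median difference of −0.04. The shares over all genes were 18.9% higher and 30.2% lower, so the share of these genes that was lower is near that of all genes, and the counts by role below stand against the same shares. Without WT replicate 3, 5 were higher and 7 lower, while of all 18854 genes 2294 were higher and 2907 lower. Of the listed Hedgehog genes, 2 of 19 genes with several tested probes had probes called in opposite directions (10.5%), against 4.03% of 5587 such genes on the array.

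Among ligands and proteins that release them, 0 of 6 tested genes were higher and 2 lower, with a median of 0.01. Ihh, the Indian hedgehog ligand, fell by 0.53 (adjusted p = 0.00985). Hhat, the enzyme that attaches palmitate to Hedgehog ligands, fell by 0.34 on its brightest probe (adjusted p = 0.0448), but its other probe was higher (0.81, adjusted p = 0.00563). Shh, the Sonic hedgehog ligand, and Scube1, which helps release ligands, did not pass the filter for signal above background.

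Of 6 receptors and co-receptors, 1 was higher and 1 lower, with a median of −0.17. Cdon, a co-receptor that binds Hedgehog ligands, rose on its brightest probe (0.99, adjusted p = 0.0103), while its other probe gave 0.19 and did not pass. Smo, which encodes Smoothened, did not pass on its brightest probe (−0.18, 95% interval −0.43 to 0.07, adjusted p = 0.199), and its dimmer probe was higher (1.23, adjusted p = 0.00556).

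Among 15 genes that carry the signal from Smoothened to the Gli proteins, 3 were higher and 8 lower, with a median of −0.38. Evc and Evc2, partners of Smoothened at the base of the primary cilium, rose by 1.66 (adjusted p = 0.00569) and 0.88 (adjusted p = 0.0103), but a second Evc probe gave −0.07 (adjusted p = 0.663). Gli3, which acts mainly as a repressor, rose by 0.45 (adjusted p = 0.0133). Larger falls were those of Kif7, a ciliary kinesin (−0.83), the kinases Gsk3b (−0.65) and Stk36 (−0.56), and Arl13b, a ciliary GTPase (−0.48). The other 2 Gsk3b probes were called higher (0.84 and 0.55), and a second Kif7 probe did not pass (−0.04). Sufu, the protein that holds Gli factors inactive, was chosen after its values were seen and fell on both probes (−0.48 and −0.45, adjusted p = 0.0131 and 0.0151).

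The listed target genes, known as targets of the pathway in various tissues, gave calls in 1 direction: 6 of 9 tested were higher and 0 lower, with a median of 0.95. They were the cyclins Ccnd2 (1.54) and Ccnd1 (0.95), the growth factors Tgfb2 (1.17) and Bmp4 (0.96), and the forkhead factors Foxc2 (1.14) and Foxf1 (0.66), with adjusted p between 0.00832 and 0.0232. Foxf2 and Hand2 did not pass the filter. Most of these genes also answer to other signals, and Ccnd1 and Ccnd2 are expressed in many dividing cells.

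**Figure D4:**
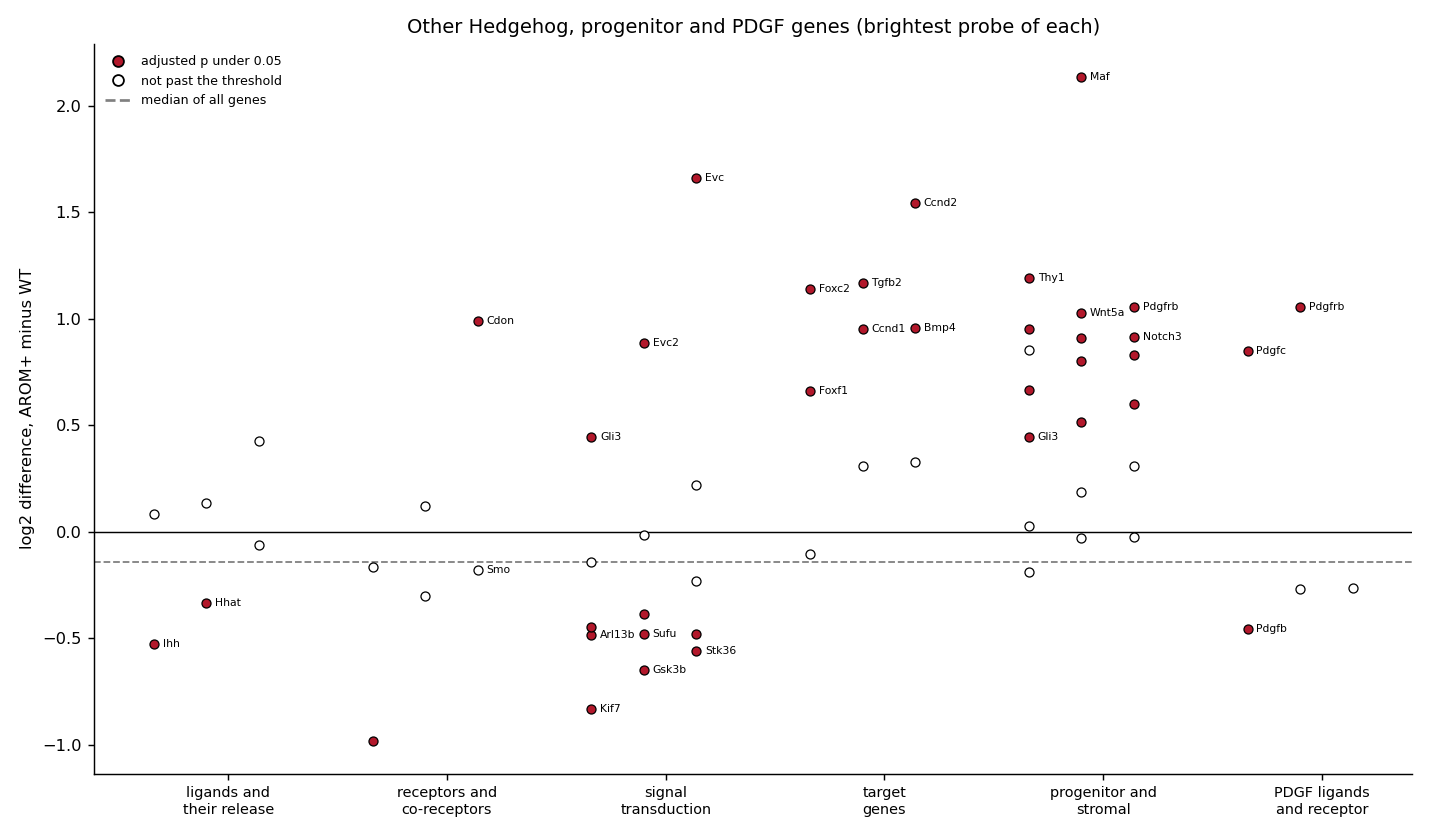
Log2 difference, AROM+ minus WT (vertical axis), of the brightest probe of each listed gene, grouped by role (horizontal axis), with the names of genes given in the text. Filled points passed an adjusted p of 0.05 and the dashed line is the median of all genes (−0.14); target and progenitor genes lie mostly above 0, and 8 of the 15 transduction genes are filled below it.

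Of 20 genes listed for interstitial progenitors and stroma beyond the 8, 13 were higher (65%), 0 lower and 7 not called, with a median of 0.73. The shares over all genes were 18.9% higher and 30.2% lower. This list shares Gli3 and Osr1 with the Hedgehog list, Pdgfrb with the PDGF list and Wt1 with the Sertoli cell markers, and these count in both. Among the larger differences were those of the leucine zipper factor Maf (2.13, adjusted p = 0.0045), the surface antigen Thy1 (1.19, adjusted p = 0.0421), the perivascular receptors Pdgfrb (1.05, adjusted p = 0.00381) and Notch3 (0.92, adjusted p = 0.00341) and the secreted signal Wnt5a (1.03, adjusted p = 0.0122). The Thy1 groups overlapped. Maf is also expressed by macrophages. Among PDGF ligands and the second receptor, Pdgfrb and the ligand gene Pdgfc (0.85, adjusted p = 0.00993) rose, Pdgfb fell by 0.46 on its brightest probe (adjusted p = 0.00844), and Pdgfa and Pdgfd did not pass on theirs. The second Pdgfb probe had the opposite sign and did not pass (0.26, adjusted p = 0.143). The second Pdgfa probe fell (−0.28, adjusted p = 0.0485), against −0.26 on the brightest (adjusted p = 0.0578).

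Markers of the other cell types of the testis were summed per array, in multiples of its 75th percentile. Counts of markers called stand against 18.9% higher and 30.2% lower over all genes. The fibroblast and matrix sum was 26.2 to 38.0 in AROM+ testes and 13.2 to 18.4 in WT testes, 2.16 times as high on average, and 7 of its 7 genes were higher. Of these, Dpt, chosen here after its values were seen, was well above background on 1 of 3 WT arrays and entered the test through the AROM+ arrays alone. The macrophage sum was 23.1 to 35.6 in AROM+ testes and 9.30 to 12.8 in WT testes (6 of 7 genes higher, 1 lower). The lower one was Csf1r, the receptor for a macrophage growth factor, on its brightest probe (−0.44, adjusted p = 0.028), while its other 2 probes were higher (2.04 and 1.54, adjusted p = 0.00954 and 0.00515). The part of fibroblasts and macrophages in the rises of Pdgfra, Tcf21, Hhip, Gli1 and Gli2 was not tested.

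The lymphatic endothelium sum was 1.98 to 3.07 in AROM+ testes and 0.459 to 0.656 in WT testes, with 3 of 3 tested genes higher. Pdpn and Lyve1 were the 2 brightest of them, and whether other cell types also made them was not tested. Lyve1 was well above background on 1 of 3 WT arrays and entered the test through the AROM+ arrays alone. Prox1 did not pass the filter, and its groups overlapped. It read 1.21, 0.85 and 0.78% in AROM+ testes and 0.66, 1.14 and 1.01% in WT testes. The blood endothelium sum was 4.202 to 4.949 in AROM+ testes and 3.69 to 4.37 in WT testes, with overlapping groups (5 of 7 genes higher, 1 lower). Its 2 brightest genes were Vwf, which was not called (0.20, adjusted p = 0.224), and Kdr, the lower one. Kdr fell on its brightest probe (−0.38, adjusted p = 0.0162), while its other probe was higher (0.86, adjusted p = 0.0263). The part of lymphatic and blood vessels in the rise of Nr2f2, which such vessels express, was not tested.

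The adult Leydig cell sum was 37.4 to 54.0 in AROM+ testes and 22.1 to 39.5 in WT testes, with overlapping groups, and 4 of 8 genes were higher and 0 lower. The Sertoli cell sum was 34.4 to 49.4 in AROM+ testes and 36.8 to 42.8 in WT testes (2 of 9 higher, 0 lower), and it was highest in AROM+ replicate 3, the testis with the highest Dhh level. The peritubular sum was 20.5 to 22.5 in AROM+ testes and 21.9 to 25.0 in WT testes, with overlapping groups (0 of 6 higher, 1 lower). The lower gene was Actg2, the brightest of the 6 (−0.54, adjusted p = 0.00784), and the median difference of the 6 was 0.24. The Schwann cell sum was 2.00 to 3.16 in AROM+ testes and 1.52 to 1.93 in WT testes (1 of 4 higher, 1 lower), with the groups close together but not overlapping. The germ cell sum was 130.4 to 140.9 in AROM+ testes and 151.8 to 218.2 in WT testes, without overlap, with 0 of 7 genes higher and 4 lower. The part of these cell types in the results above was not tested.

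**Figure D5:**
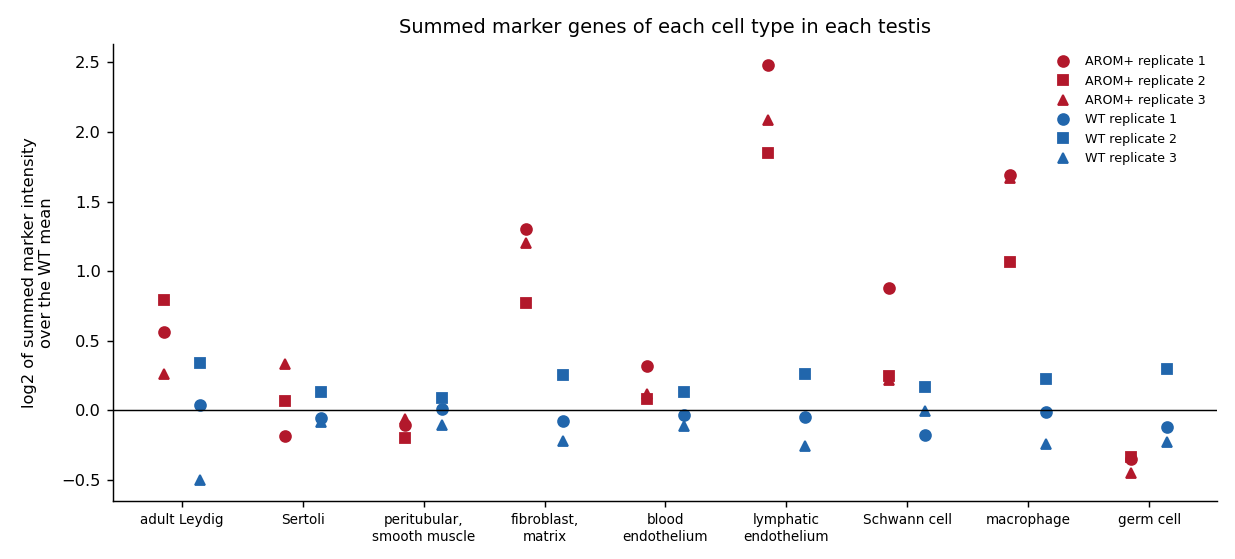
Log2 of the summed marker intensity over the WT mean (vertical axis) for 9 cell types (horizontal axis), with AROM+ testes in red left of WT testes in blue and 1 symbol per replicate number. Lymphatic, macrophage, fibroblast and, by a narrow margin, Schwann cell sums of all 3 AROM+ testes lie above those of the WT testes, and the germ cell sums below.

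The genes whose levels ran most closely with each of the 8 over the 6 arrays were named by Pearson's r among 16950 genes. This is a description, since all points share the same 6 arrays and 2 groups. The genes were picked for the highest r, so the height of r is no result in itself. Nr2f2 ran with Zbtb8b (r = 0.9998) and Pcdhb4 (0.9989), Tcf21 with Blvra (0.9989) and Cstb (0.9986), and Pdgfra with Rb1 (0.9969) and Gjb2 (0.9967). Hhip ran with Phip (0.9994) and F3 (0.9977), Gli1 with Tle6 (0.9989), and Gli2 with Ednra (0.9984) and Htatsf1 (0.9961). Dhh ran with Ddit4l (0.9974) and Acp7 (0.9973), and Ptch1 with Nlrp4a (0.9986) and Pdcd2l (0.9891). None of the 8 genes was the nearest to another.

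Gli proteins bind DNA at the letters GACCACCCA. RefSeq promoter windows of GRCm38.p6, from 250 bases before to 50 after the start, were matched by symbol for 7 of the 8 genes. Gli1 had no matched window and was not searched. The core CCACCCA occurred on either strand in 0 of the 7 windows and in 9.3% of all 32851 windows. The full GACCACCCA, which holds the core, occurred in 0 of the 7 and in 0.253% of all windows. These letters are therefore not in these windows, and other windows were not searched.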

How the data were processed

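The deposited spot intensities are the processed signal, corrected for background per the file headers. Agilent Feature Extraction made them, as 10.7.3.1 by the headers and 10.10 by the submitters' processing notes. The authors also deposited a table of log2 values. By comparison, each of its columns equals the log2 signal shifted by a single constant (slope 1.00, column medians −3.41 to −3.34), without centring of genes.

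Each array had 62976 spots. The 3671 control spots and 123 to 192 outlier spots per array were left out, and spots of one probe were averaged. Log2 processed signal minus the array's 75th percentile was fitted with limma 3.58.1 in R 4.3.3 (lmFit, eBayes), with Benjamini-Hochberg adjustment over the 42637 probes that every array of at least 1 of the groups measured well above background. Samples were grouped by the genotype label. Of all probes, 26155 took their name from an accession, 3756 from a symbol and 623 from a synonym in the RefSeq table of GRCm38.p6, 703 list several genes and 24444 had no match. The fit was tested on simulated data.

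The 8 genes, the lists and the markers were chosen with earlier results of these data known. Named from the lists were called genes, up to 6 per list by size, besides Shh, Ihh, Smo and Gli3. For each of the 8 genes, the 2 most alike genes were named, clone and predicted names being passed over. A few genes chosen by these rules are not reported here. Alternatives were normexp (offset 50), quantile, median and spike-in scaling, the deposited table, other filters, 1 probe or the mean of probes per gene, eBayes with a trend, a replicate block and leaving out each array.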

Additional observations from a re-analysis of the deposited data

How the results depend on the processing

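Hhip, Nr2f2 and Tcf21 kept their direction and their call in every alternative run, and Dhh was called in none. In the settings that kept all arrays, 4 to 6 of the 8 genes were called higher, and 2390 to 3901 over all genes. The labels give both groups replicate numbers 1 to 3. Deviations of same-numbered testes from their group means had correlations of 0.05, −0.15 and 0.04, none of them the highest for its number. With 3 testes per group, these correlations cannot exclude a pairing. With the replicate number as a block, 4 of the 8 genes were called higher, with Gli1 (0.54, adjusted p = 0.0791) and Pdgfra (0.59, adjusted p = 0.0518) not past the threshold, and over all genes 2984 were higher and 4166 lower. Gli1 was also lost without the filter on dim probes (adjusted p = 0.0647) and with quantile normalization (0.52, adjusted p = 0.0541), Pdgfra without the filter (adjusted p = 0.056), and Gli2 with normexp (0.41). The cause was not tested. The mean of a gene's probes reversed Ptch1 (0.12) and gave 0.16 for Gli1. With 1 probe per gene, where fewer tests are adjusted for, Ptch1 was called lower (adjusted p = 0.0472), the 1 member gene so called. Of the PDGF genes, 3 were lower with 1 probe per gene, 2 with eBayes with a trend and 2 with normexp, against 1 as reported. Quantile normalization gave 3625 genes lower, against 5700 as reported, and 7 other Hedgehog genes lower, against 11. Spike-in scaling gave 3925 probes higher, against 6008 as reported. With each array left out in turn, 3 to 5 of the 8 genes were called higher and 0 to 1 lower, 5 to 11 other Hedgehog genes higher and 7 to 10 lower, 11 to 14 progenitor and stromal genes higher, and 1 to 2 PDGF genes lower. Over all genes these runs gave 2294 to 3377 higher and 2907 to 4897 lower, and over all probes 3825 to 5635 higher and 6735 to 11391 lower, each lowest without WT replicate 3. Without WT replicate 1, 3231 genes and 7582 probes were lower, and 2 PDGF genes were lower without WT replicate 2. Signal limits what can be said of the second Hhip probe, which without the filter gave −0.37 (adjusted p = 0.514).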
